A study of Mus musculus with 12 samples.

Results

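The TRAV12 family is a set of closely related variable gene segments of the mouse T cell receptor alpha locus (Vα8 in the older mouse nomenclature). Its members were taken from a table of assembled receptor contigs as the productive TRA contigs in called cells whose V gene name began with TRAV12-, TRAV12D- or TRAV12N-. Each V gene and CDR3 nucleotide sequence was counted once per library, which gave 751 TRAV12 rearrangements of 9383 TRA rearrangements in 6 libraries, against 8632 of all other V genes. The family was found in 954 combinations of a cell and a chain.

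An alpha chain gene is made in the thymus when a TRAV segment is joined to a TRAJ segment, with bases trimmed and added at the junction. The codons around the join form the CDR3, the loop that sits over the middle of the presented peptide, and each alpha chain pairs with a beta chain to form the receptor. In C57BL/6 mice a stretch of the TRAV region is repeated, and the letters D and N in gene names mark copies that lie in the repeated blocks. A T cell can rearrange its alpha locus again, exchanging an earlier join for one between V and J segments that lie farther apart, and it can carry productive joins on both chromosomes.

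The libraries came from CD45+ immune cells of mammary tumours in BALB/c mice. The labels give every sample, untreated samples included, the same 3 week protocol with cyclophosphamide, a cytotoxic alkylating drug, and pexidartinib, a kinase inhibitor used to deplete macrophages through their CSF1 receptor; a separate field says treated or untreated. By that field 4 libraries were treated (CTX, CTX2, CSF1R and Combined). The PBS2 library had labels in conflict: its receptor sample is marked as treated, while the expression sample named by its index is marked as untreated, and its values stand apart from both groups. The PBS1 library was untreated, by the record of its expression sample. The tie of CSF1R to its record holds for the treated group and not for a particular sample, and the labels do not define the tags CTX, CSF1R, Combined and PBS. The labels do not say which mouse gave each library, so the p-values measure only the spread between these libraries.

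The libraries differed widely in depth. Called cells with a productive TRA chain numbered 504 in CTX, 1044 in CTX2, 764 in CSF1R, 6070 in Combined, 404 in PBS2 and 188 in PBS1. Contigs held between 31178451 and 83903661 reads and between 6807 and 121305 UMIs per library. Of 941 barcodes of TRAV12 cells, 1 carried the family in more than 1 library. The CDR3 began with the residues CA in 99.1% of the 751 TRAV12 rearrangements and in 92.9% of the 8632 others. This start therefore does not tell the family from other V genes.

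The sequences on which the results turn are CDR3 nucleotide sequences of alpha chains that were found in several libraries or filled many cells. They are copied from the deposited contigs from the first base of the CDR3 to its last, with capitals for bases outside the V and J ends that are common among sequences of the same gene. The first 3 belong to a TRAV12-1/TRAJ45 chain, the fourth to a TRAV12D-2/TRAJ39 chain with no base outside the common ends, and the fifth to the second largest TRAV12 clone of CTX2.
TRAV12-1/TRAJ45 in CTX2 and PBS1: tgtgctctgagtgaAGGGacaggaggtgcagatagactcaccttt
TRAV12-1/TRAJ45 in Combined and PBS2: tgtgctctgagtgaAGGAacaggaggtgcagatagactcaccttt
TRAV12-1/TRAJ45 in 1 cell of PBS1: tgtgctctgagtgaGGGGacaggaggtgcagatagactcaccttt
TRAV12D-2/TRAJ39 in CTX, CTX2, Combined and PBS2: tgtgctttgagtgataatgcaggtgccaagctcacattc
TRAV12D-2/TRAJ48 in CTX2: tgtgctctgagaaatgagaaaataactttt
Counted from 1 at the first base of the CDR3, the form in Combined and PBS2 differs from the commonest TRAV12-1/TRAJ45 form by G18A, and the form in 1 cell of PBS1, which rests on 1 UMI, by A15G. The 3 forms encode the same 15 residues.

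Among distinct rearrangements the family's share lay between 5.95% and 10.9% in the 6 libraries. TRAV12 made up 8.35% of TRA rearrangements in CTX (35 of 419; 95% Clopper-Pearson interval 5.89 to 11.4). It made up 7.92% in CTX2 (41 of 518; 5.74 to 10.6) and 5.95% in CSF1R (51 of 857; 4.46 to 7.75). The share was 8.04% in Combined (566 of 7040; 7.41 to 8.70), 10.9% in PBS2 (44 of 404; 8.03 to 14.3) and 9.66% in PBS1 (14 of 145; 5.38 to 15.7). CSF1R was lowest and PBS2 highest, and the intervals of these 2 libraries do not overlap; the intervals cover counting error only. The 4 treated libraries averaged 7.56% ± 1.09 (SD, n = 4) against 9.66% in the single untreated library, a difference of -2.09 percentage points. The two-sided exact permutation p was 0.4, and with 4 libraries against 1 it cannot go below 0.2. With PBS2 counted as untreated the means were 7.56% (n = 4) and 10.3% (n = 2), at an exact permutation p of 0.0667, the smallest this placement allows. With PBS2 counted as treated, as its receptor record has it, they were 8.23% (n = 5) and 9.66% (n = 1), at an exact permutation p of 0.5.

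Over the 6 libraries TRAV12 averaged 8.47% ± 1.68 (SD), which placed it behind 4 other TRAV families. TRAV6 averaged 18.1% ± 1.36, TRAV7 11.2% ± 3.66, TRAV9 10.8% ± 2.001, TRAV14 8.63% ± 0.849 and TRAV13 6.92% ± 1.54. TRAV12 and TRAV14 differed by less than the spread between libraries. Differences between these families were not tested.

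Counted by cells, the family was far more uneven. It took 7.81% of TRA chains in cells in CTX (47 of 602), 13.1% in CTX2 (157 of 1196), 5.95% in CSF1R (52 of 874), 8.02% in Combined (580 of 7228), 17.6% in PBS2 (82 of 466) and 16.7% in PBS1 (36 of 216). PBS2, PBS1 and CTX2 had the highest shares, with lower interval bounds of 14.2%, 11.95% and 11.3%. These bounds take each cell as a separate draw, which cells of 1 clone are not. In PBS1, 23 of the 36 family cells carried 1 sequence, so the bounds do not show how far the libraries differ. The treated libraries averaged 8.73% ± 3.08 (SD, n = 4) against 16.7% in PBS1, at a two-sided exact permutation p of 0.2, the smallest possible. Without the TRAV12-1/TRAJ45 and TRAV12D-2/TRAJ39 chains the share by cells was 6.25% in CTX, 9.10% in CTX2, 5.95% in CSF1R, 7.999% in Combined, 10.9% in PBS2 and 6.25% in PBS1. The direction of the treated against untreated difference then turned, to 1.07 percentage points. These 2 chains were chosen after the data were seen. They held 24 of the 36 family cells of PBS1, the only untreated library, so its fall follows from the choice. The 39 cells of the TRAV12D-2/TRAJ48 clone in CTX2, a treated library, were kept. The turn in direction therefore cannot be read as a result on treatment.

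**Figure D1:**
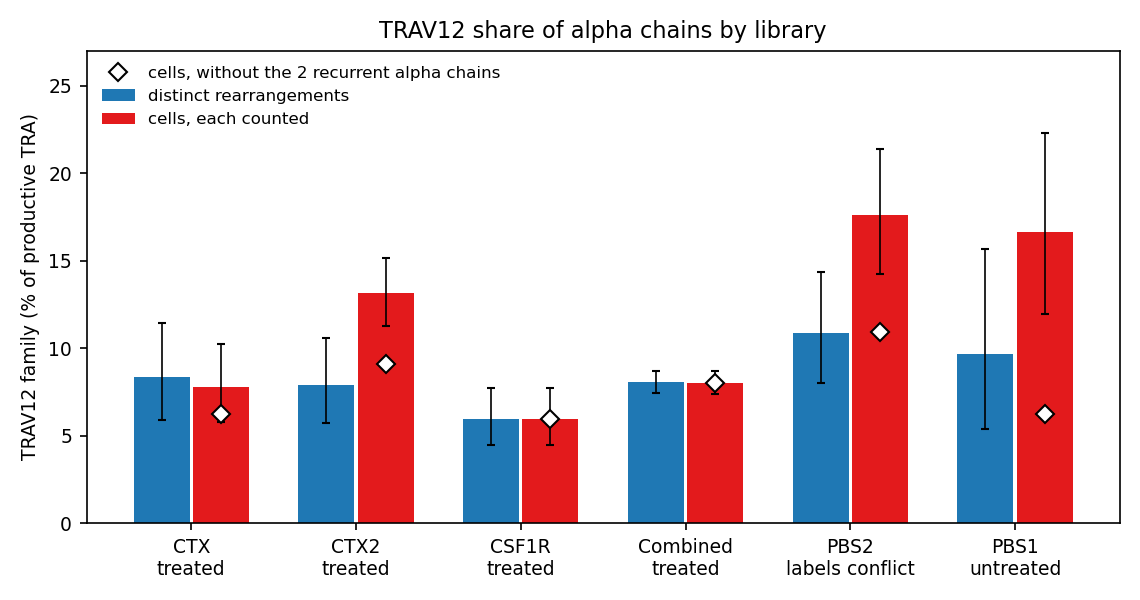
Percent of productive TRA that used a TRAV12 gene in each library, as distinct rearrangements (blue bars) and as cells (red bars), with 95% Clopper-Pearson intervals; diamonds give the share by cells without the 2 recurrent alpha chains. The red bars of PBS2 (17.6%), PBS1 (16.7%) and CTX2 (13.1%) stand above the blue ones, and the diamonds lie between 5.95% and 10.9% in the 6 libraries.

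The share of the family's cells in expanded rearrangements, those seen in 2 or more cells, was also highest in CTX2, PBS1 and PBS2. It was 31.9% in CTX, 79.0% in CTX2, 3.85% in CSF1R, 4.48% in Combined, 53.7% in PBS2 and 63.9% in PBS1. This share was not computed for cells of other V genes, so it cannot tell a trait of the family from one of the library. Of the family's rearrangements, expanded ones numbered 3 of 35 in CTX, 8 of 41 in CTX2, 1 of 51 in CSF1R, 12 of 566 in Combined, 6 of 44 in PBS2 and 1 of 14 in PBS1. In PBS1 all 23 cells in expanded TRAV12 rearrangements thus carried a single sequence. Of other TRA rearrangements, 11.2% were expanded in CTX, 11.9% in CTX2, 1.49% in CSF1R, 2.26% in Combined, 3.33% in PBS2 and 9.16% in PBS1. TRAV12 rearrangements were expanded in 8.82% ± 6.82 and other TRA rearrangements in 6.56% ± 4.73 (SD, n = 6), a difference of 2.26 percentage points that went either way between libraries (exact sign-flip permutation p = 0.438, adjusted over 7 measures 0.688). It was 0.65 without PBS2, 1.20 without CTX2 and 4.58 with only the most abundant TRA chain of each cell.

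Copies of the family were used very unequally. The annotation lists 10 TRAV12 genes on chromosome 14 (RefSeq, GRCm38.p6, the assembly also called mm10), of which 1 is a pseudogene, and it is of C57BL/6J, another strain than the mice here. All 6 TRAV12 names in the table matched it. TRAV12D-2 (chr14:52915915-52916426) gave 366 of the 751 rearrangements, TRAV12-3 (chr14:53621752-53622245) 212 and TRAV12-1 (chr14:53538266-53538738) 95. TRAV12D-3 (chr14:52929789-52930282) gave 44, TRAV12N-1 (chr14:53155607-53156088) 33 and TRAV12N-2 (chr14:53226884-53227400) 1, in PBS2. The remaining V segments, TRAV12D-1, TRAV12N-3 and TRAV12-2, and the pseudogene TRAV12-4 were not called in these libraries.

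TRAV12D-2 was the most used copy in each of the 6 libraries. It gave 42.9% of the family's rearrangements in CTX, 56.1% in CTX2, 52.9% in CSF1R, 47.9% in Combined, 54.5% in PBS2 and 42.9% in PBS1, a mean of 49.5% ± 5.86 (SD). TRAV12-3 averaged 24.3% ± 7.50 and TRAV12-1 17.8% ± 9.14. Within libraries TRAV12-3 was above TRAV12-1 in all but PBS1, by most in CTX (34.3% and 11.4%) and by least in CTX2 (17.1% and 14.6%). This order was not tested. TRAV12-1 reached 35.7% in PBS1, on 5 of 14 rearrangements, and lay between 11.3% and 17.6% in the other libraries. The 5 include the A15G form of the TRAV12-1/TRAJ45 chain, in 1 cell with 1 UMI. TRAV12D-3 averaged 4.40% ± 2.83 and TRAV12N-1 3.64% ± 2.71, and their order went either way between libraries. Pooled by cells there were 478 for TRAV12D-2, 220 for TRAV12-3 and 169 for TRAV12-1, but this order came from Combined: in the other 5 libraries TRAV12-1 had 105 cells and TRAV12-3 had 47. In PBS1 TRAV12-1, with 27 cells, also exceeded TRAV12D-2, with 6.

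Some calls between copies were ambiguous. Counted by CDR3 alone there were 731 sequences, and 19 of them carried more than 1 TRAV12 gene name within a library. The TRAV12D-2/TRAJ39 sequence shown above was also called TRAV12N-1 in 6 cells of PBS2. The counts of single copies, and of block D, N and the unlettered block, carry this uncertainty.

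**Figure D2:**
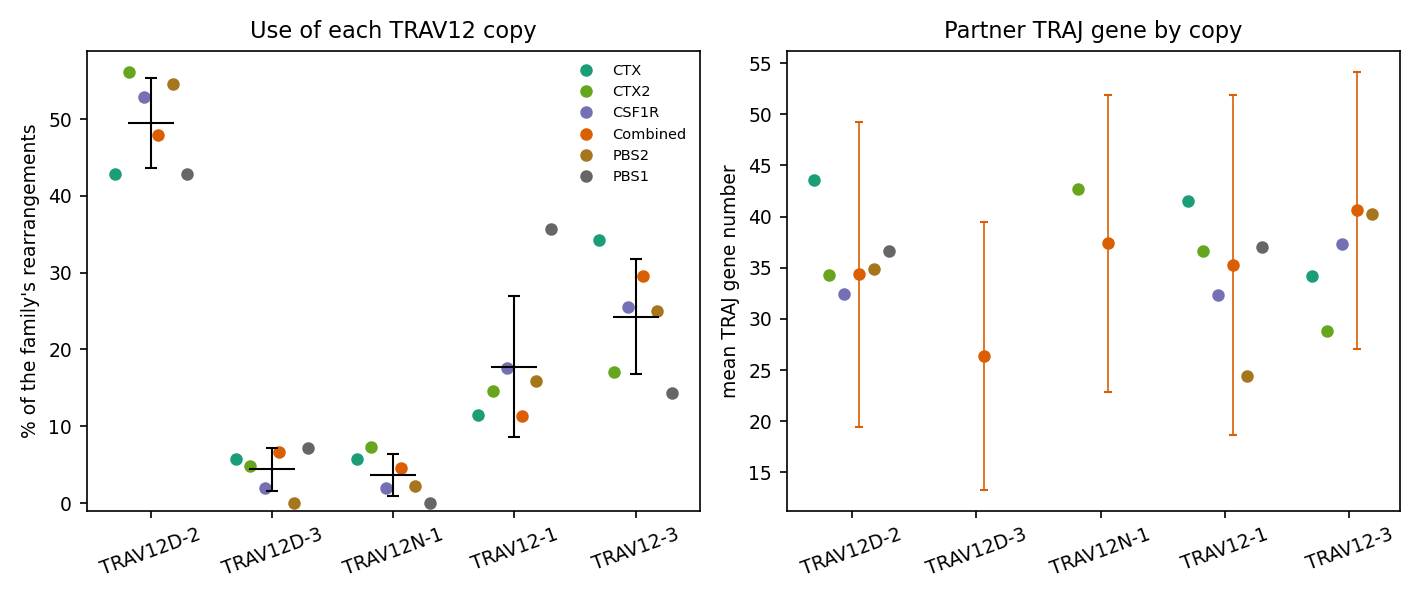
Left, percent of the family's rearrangements that used each TRAV12 copy, by library (points), with the mean and SD of 6 libraries (black). Right, mean TRAJ gene number for copies with at least 3 rearrangements in a library, with the SD over rearrangements for Combined; copies run along the chromosome with the nearest to TRAJ at the right. TRAV12D-2 leads in each library, and in Combined TRAV12-3 averages 40.6 and TRAV12D-3 26.4.

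The start of the CDR3, which the V gene encodes, was CAL far more often in the family than in other V genes pooled. It is not particular to the family, as more of the CAL starts came from other V genes. Single other families were not compared for it. CDR3s began with CAL in 683 of 751 TRAV12 rearrangements (90.9%) and in 1678 of 8632 others (19.4%); CALS alone made up 58.9% of the family and CALR 13.6%. The copies wrote the leucine with different codons. The third codon of the CDR3 was CTG in 84 of 95 TRAV12-1 rearrangements. It was TTG in 185 of 212 TRAV12-3, 38 of 44 TRAV12D-3 and 26 of 33 TRAV12N-1 rearrangements, and CTG in none of these. Rearrangements called TRAV12D-2 held both, 169 with CTG, 150 with TTG and 47 with another codon, of 366. Neither form alone reached the 212 rearrangements of TRAV12-3. Whether the 2 forms are 1 gene in these mice was not tested. The TRAV12D-2/TRAJ48 and TRAV12D-2/TRAJ39 sequences above show the 2 forms, ctg in the first and ttg in the second.

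The 2 forms called TRAV12D-2 were joined to different parts of the TRAJ cluster in some libraries. TRAJ genes are numbered so that higher numbers lie nearer the V genes, and the mean TRAJ number was 38.9 with CTG (133 rearrangements) against 29.3 with TTG (106) in Combined. It was 41.8 and 45.8 in CTX, 47.1 and 25.5 in CTX2, and 34.2 and 33.5 in CSF1R, in the same order of CTG and TTG. It was 33.3 and 33.2 in PBS2 and 47.7 and 25.7 in PBS1. Thus CTG was higher in 5 of 6 libraries, by less than 1 TRAJ number in CSF1R and PBS2. The split was chosen after the sequences were seen and was not tested.

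The TRAJ partners of the family covered the whole cluster. TRAV12 rearrangements used 43 of the 43 TRAJ genes seen with any V gene, from TRAJ58 (chr14:54157280-54157342) to TRAJ2 (chr14:54217836-54217901). The mean TRAJ number was 38.9 in CTX, 34.4 in CTX2, 33.02 in CSF1R, 35.9 in Combined, 34.8 in PBS2 and 38.9 in PBS1. For other TRA rearrangements it was 35.6 in CTX, 35.6 in CTX2, 35.8 in CSF1R, 35.9 in Combined, 36.1 in PBS2 and 32.8 in PBS1. TRAV12 was higher in 2 of 6 libraries, by 0.71 ± 3.36 on average (SD, n = 6; exact sign-flip permutation p = 0.688, adjusted 0.688). Without PBS1, which has 14 TRAV12 rearrangements, the difference was -0.38.

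TRAJ45 was the most used partner on average, at 8.82% ± 7.57 of TRAV12 rearrangements and 3.39% ± 0.582 of others (SD, n = 6). It took 14.3% in CTX, 7.32% in CTX2, 1.96% in CSF1R, 3.36% in Combined, 4.55% in PBS2 and 21.4% in PBS1. The mean thus rests on CTX and PBS1, and Combined, with most of the rearrangements, was near the level of other V genes. PBS1 has 14 family rearrangements. Its TRAJ45 share counts the commonest TRAV12-1/TRAJ45 form and its A15G form, in 1 cell with 1 UMI, as separate rearrangements. TRAJ56 followed with 6.19% ± 4.64 in the family and 3.75% ± 1.24 in others, and TRAJ57 with 4.86% ± 2.85 and 3.26% ± 0.684. TRAJ39 took 4.31% ± 2.84 and 2.56% ± 0.833. Grouped along the cluster, TRAJ45 to TRAJ34 held 31.1% ± 6.75 of TRAV12 and 24.2% ± 1.85 of other rearrangements. In this range PBS1 was highest for the family, at 42.9% of its 14 rearrangements, and Combined went the other way, at 23.3% for the family and 26.5% for others. By the same grouping TRAJ58 to TRAJ47 held 27.9% ± 3.54 and 31.3% ± 2.30. These shares by TRAJ gene were not tested.

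**Figure D3:**
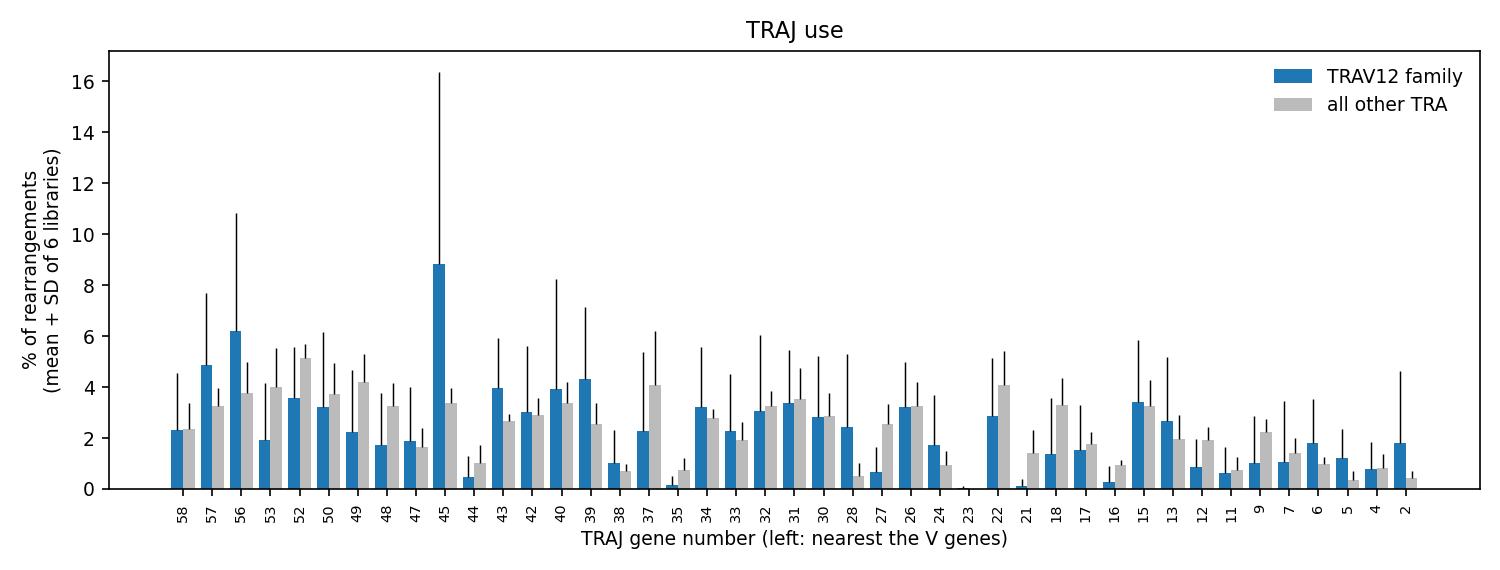
Percent of rearrangements that used each TRAJ gene in the TRAV12 family (blue) and in all other TRA (grey), as the mean of 6 libraries with the SD drawn upward; genes run from the V side of the cluster at the left. TRAJ45 is the highest family bar at 8.82%, with an SD of 7.57.

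Copies differed in their mean TRAJ number in Combined, the library with the most members. There it was 40.6 ± 13.5 for TRAV12-3 (SD over 167 rearrangements), 37.4 ± 14.5 for TRAV12N-1 (26), 35.3 ± 16.6 for TRAV12-1 (64), 34.3 ± 14.9 for TRAV12D-2 (271) and 26.4 ± 13.1 for TRAV12D-3 (38). The SDs are wide next to the differences. TRAV12-3 was also above TRAV12D-2 in CSF1R (37.3 and 32.4), PBS2 (40.3 and 34.9) and PBS1 (42.0 and 36.7, on 2 and 6 rearrangements). It was below in CTX (34.2 and 43.6) and CTX2 (28.9 and 34.3). By block, the D genes averaged 36.03 and the unlettered genes 35.9 over 6 libraries, a difference of 0.13 ± 4.37 (exact sign-flip permutation p = 0.969, adjusted over 3 pairs 1). The N genes had enough rearrangements in CTX2 and Combined only, where the D genes were lower in both (mean difference -6.12 ± 2.98, n = 2, exact permutation p = 0.5, the smallest possible).

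CDR3 lengths were close to those of other V genes. The mean was 13.7 residues in CTX, 13.7 in CTX2, 13.9 in CSF1R, 13.8 in Combined, 13.5 in PBS2 and 14.2 in PBS1. The family averaged 13.80 ± 0.24 residues and the other TRA rearrangements 13.66 ± 0.09 (SD, n = 6), a difference of 0.13 (exact sign-flip permutation p = 0.344, adjusted 0.688). It was 0.065 without PBS1 and 0.088 without CSF1R. Junctions were short: a median of 2 bases lay outside the common V and J ends, and 148 of 751 rearrangements (19.7%) had none.

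Beta partners were assigned for 689 of the 751 TRAV12 rearrangements, as the TRB chain with the most UMIs in the cell, and came from 20 TRBV genes. Genes of the TRBV13 group (Vβ8), widely used in mice, partnered 51.5% of the family in CTX, 52.8% in CTX2, 45.5% in CSF1R, 35.0% in Combined, 34.2% in PBS2 and 25.0% in PBS1. Among other TRA rearrangements TRBV13 partnered 38.6% in CTX, 35.5% in CTX2, 28.7% in CSF1R, 31.1% in Combined, 36.1% in PBS2 and 27.5% in PBS1. The 4 treated libraries were thus higher for the family than for other TRA, by 3.84 to 17.3 percentage points, and PBS2 and PBS1 were slightly lower. Over 6 libraries the means were 40.7% ± 11.0 and 32.9% ± 4.45, a difference of 7.74 ± 9.07 that did not pass (exact sign-flip permutation p = 0.156, adjusted 0.547). With each cell counted once the difference was 1.94 (exact permutation p = 0.875).

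Within that group TRBV13-2 (Vβ8.2) contributed most. It partnered 20.02% ± 6.51 of TRAV12 rearrangements against 14.6% ± 1.78 of others and was higher in 5 of 6 libraries (exact sign-flip permutation p = 0.125, adjusted over 7 TRBV genes 0.438). TRBV19 (Vβ6) partnered 8.004% ± 2.96 against 11.0% ± 2.29 and was lower in 5 of 6 (exact p = 0.0625, adjusted 0.438). TRBV13-3 partnered 9.93% ± 5.85 against 7.73% ± 2.23. None of these 7 genes, chosen for an average of at least 5% of the family's partners over the libraries, passed an adjusted threshold of 0.05 by this test, and none had an unadjusted p under 0.05.

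That choice leaves out genes that are low in the family, so genes averaging at least 5% of the partners of all TRA were tested as an alternative chosen after the data were seen, which gave 9 genes. It added TRBV5 (Vβ1), which partnered 3.03% of TRAV12 rearrangements in CTX, 4.55% in CSF1R, 9.13% in Combined and 5.26% in PBS2. TRBV5 was with 0 of 36 in CTX2, which allows up to 8.33%, and 0 of 12 in PBS1, which allows up to 25.0%. Among other TRA rearrangements it partnered 11.3% in CTX, 9.28% in CTX2, 11.6% in CSF1R, 10.6% in Combined, 6.74% in PBS2 and 8.33% in PBS1. TRBV5 was thus lower for the family in 6 of 6 libraries, with means of 3.66% ± 3.48 and 9.64% ± 1.88 (SD), though by little in Combined and PBS2. TRBV20 (Vβ15), also added, partnered 3.60% ± 3.08 of the family and 5.81% ± 1.92 of others and was lower in 6 of 6. It too was with 0 of 36 in CTX2 and 0 of 12 in PBS1, with the same limits. In CTX (3.03% and 3.58%) and PBS2 (5.26% and 5.57%) it was lower by little. For both genes the exact sign-flip permutation p was 0.03125, the lowest that 6 libraries can give, and 0.141 adjusted over the 9 genes, so that neither passed.

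The alpha chain TRAV12-1/TRAJ45 with the 15-residue CDR3 shown above was found in 4 libraries. It filled 48 of 1044 TRA cells in CTX2 (4.60%; 3.41 to 6.05), 1 of 6070 in Combined (0.0165%), 4 of 404 in PBS2 (0.990%) and 24 of 188 in PBS1 (12.8%; 8.35 to 18.4). It was in 0 of 504 cells in CTX, which allows a share of up to 0.595%, and in 0 of 764 in CSF1R, which allows up to 0.393%. In PBS1 the commonest form, with 23 cells, was the largest alpha clone of any V gene. CTX2 and PBS1 therefore held nearly all of its 77 cells, and PBS1 held the largest share.

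Its beta partner was TRBV14 (Vβ13) in 75 of 77 cells (97.4%). TRBV14 partnered 3.99% ± 0.83 of other TRA rearrangements (SD, n = 6), a share counted by rearrangement and not by cell. The beta CDR3s nevertheless differed: 9 distinct sequences accompanied this alpha chain, 7 of them with TRBV14, and none was shared between libraries. The 6 below are shown because they set the same alpha chain beside TRBV14 chains of different CDR3 length or J gene; no capitals are marked.
TRBV14/TRBJ2-3 in 43 cells of CTX2: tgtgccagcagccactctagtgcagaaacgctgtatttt
TRBV14/TRBJ1-3 in 4 cells of CTX2: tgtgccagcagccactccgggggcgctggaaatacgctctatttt
TRBV14/TRBJ1-1 in 1 cell of Combined: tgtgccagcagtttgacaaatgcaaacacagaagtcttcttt
TRBV14/TRBJ1-3 in 4 cells of PBS2: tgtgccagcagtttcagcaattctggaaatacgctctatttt
TRBV14/TRBJ2-4 in 15 cells of PBS1: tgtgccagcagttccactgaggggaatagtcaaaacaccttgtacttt
TRBV14/TRBJ2-3 in 7 cells of PBS1: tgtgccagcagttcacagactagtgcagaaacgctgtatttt
The lengths ran from 13 to 16 residues. The seventh TRBV14 sequence, in 1 further cell of PBS1, differed by 1 base from the TRBV14/TRBJ2-4 sequence of the 15 PBS1 cells. The 2 partners with another V gene were TRBV4 in 1 cell of CTX2 and TRBV13-1 in 1 cell of PBS1. That PBS1 cell is the one with the A15G form, and its alpha and beta contigs had 1 UMI each. No barcode carried this alpha chain in more than 1 library. TRAV12-1 rearrangements other than this chain had TRBV14 with 3 of 81 (3.70%), close to the 3.34% of 8155 other TRA rearrangements pooled. The 1 other CDR3 of TRAV12-1/TRAJ45, in 2 cells, also had TRBV14 as its partner.

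TRBV14 was also the partner of the second TRAV12 clone of CTX2. The TRAV12D-2/TRAJ48 chain, with a CDR3 of 10 residues and no base outside the common ends, filled 39 cells (3.74% of TRA cells; 2.67 to 5.07), and all 39 carried the same TRBV14/TRBJ1-5 beta chain. In all, TRBV14 was in 88 of 151 TRAV12 cells with a beta chain in CTX2 (58.3%) and 23 of 34 in PBS1 (67.6%). The share was 2.27% in CTX, 2.78% in Combined and 6.94% in PBS2. TRBV14 was in 0 of 45 such cells in CSF1R, which allows up to 6.67%. The 88 cells of CTX2 include 47 with the TRAV12-1/TRAJ45 chain and the 39 with TRAV12D-2/TRAJ48. All 23 of PBS1 carried TRAV12-1/TRAJ45. Counted by rearrangement, TRBV14 partnered 3 of 36 in CTX2 (8.33%) and 1 of 12 in PBS1 (8.33%). Among other TRA rearrangements it partnered 4.30% in CTX2 and 5.0% in PBS1. The share by cells was not computed for other V genes.

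The TRAV12D-2/TRAJ39 chain of 13 residues was also found in 4 libraries, in part in different ones. It was in 10 of 504 TRA cells in CTX (1.98%; 0.955 to 3.62), 5 of 1044 in CTX2 (0.479%), 1 of 6070 in Combined and 28 of 404 in PBS2 (6.93%; 4.65 to 9.86). It was in 0 of 764 cells in CSF1R, which allows up to 0.393%, and in 0 of 188 in PBS1, which allows up to 1.60%. Its nucleotide sequence was identical in the 4 libraries. In PBS2 25 cells had it under the name TRAV12D-2, where it was the largest alpha clone, and 6 under TRAV12N-1.

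Its partner was TRBV13-2 in 38 of 41 cells with a beta chain (92.7%), many of them cells of the same clone. Counted by distinct beta sequence it was TRBV13-2 in 7 of 9. TRBV13-2 partnered 14.6% ± 1.78 of other TRA, a share counted by rearrangement and not by cell. The TRBV13-2 betas did not all have the same J gene or length. Those with TRBJ2-5 and 12 residues are set out with capitals for bases that differ from the leading beta, that of PBS2.
TRBV13-2/TRBJ2-5 in 24 cells of PBS2: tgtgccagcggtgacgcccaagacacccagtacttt
TRBV13-2/TRBJ2-5 in 6 cells of CTX: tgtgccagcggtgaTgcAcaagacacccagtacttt
TRBV13-2/TRBJ2-5 in 3 cells of CTX: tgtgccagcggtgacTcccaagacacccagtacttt
TRBV13-2/TRBJ2-5 in 2 cells of CTX2: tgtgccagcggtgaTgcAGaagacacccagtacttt
The leading betas of CTX and PBS2 differ at 2 bases and encode the same 12 residues. The other 2 shown differ from that of PBS2 at 1 and 3 bases and encode other residues. The remaining TRBV13-2 betas were in 1 cell each: TRBJ2-7 of 13 residues in CTX, TRBJ2-4 of 14 in CTX2 and TRBJ2-7 of 12 in Combined. The last differs from that of PBS2 at 11 bases. In CTX2 a TRBV31/TRBJ2-5 beta filled 2 cells, as many as the TRBV13-2/TRBJ2-5 beta shown. In PBS2 1 cell had a TRBV4 beta. No barcode carried this alpha chain in more than 1 library. Among 14 other CDR3s of TRAV12D-2/TRAJ39, TRBV13-2 was the partner of 3.

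**Figure D4:**
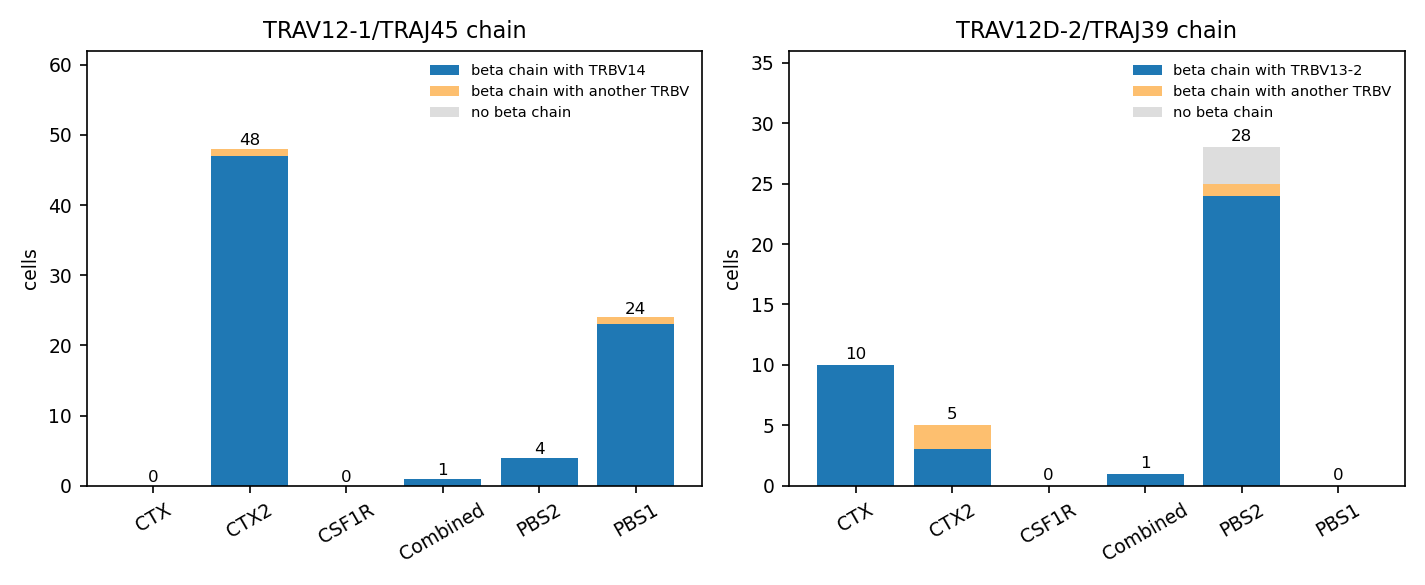
Cells with each of the 2 recurrent alpha chains by library, coloured by the V gene of their beta chain. TRAV12-1/TRAJ45 stands in CTX2 (48 cells) and PBS1 (24 cells) with TRBV14, and TRAV12D-2/TRAJ39 in CTX (10 cells) and PBS2 (28 cells) with TRBV13-2; CSF1R has neither.

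Other sharing between libraries was rare. Of 742 distinct TRAV12 sequences, 7 (0.943%) were in 2 or more libraries, against 119 of 8499 others (1.40%). The 7 encode 6 chains, since TRAV12-1/TRAJ45 is there in 2 codings. For each chain 1 leading beta V gene was taken per library. It was the same in all libraries for 4 of the 6: both chains above, TRAV12D-2/TRAJ40 with TRBV31 and TRAV12-3/TRAJ45 with TRBV13-1. Some cells of both chains above carried another beta V gene. These were TRBV31 and TRBV4 for TRAV12D-2/TRAJ39, and TRBV4 and TRBV13-1 for TRAV12-1/TRAJ45. Among shared chains of other V genes with a beta in 2 or more libraries, the leading beta V gene was the same for 15 of 106 (14.2%). The TRAV12-3/TRAJ57 and TRAV12D-2/TRAJ18 chains had different leading beta V genes in their libraries. This contrast is between few sequences, was noticed in the data and was not tested.

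Clones of the family in the remaining libraries were small. The largest was of 2 cells in CSF1R (TRAV12-1/TRAJ53 with TRBV5) and of 3 cells in Combined (TRAV12-3/TRAJ53 and TRAV12-3/TRAJ52). The 3 cells of each of these Combined sequences carried 3 different beta chains. In CTX the clones after TRAV12D-2/TRAJ39 had 3 and 2 cells, and in CTX2 the clone after the 2 with TRBV14 was TRAV12D-2/TRAJ34 with 14 cells, 13 of them with the same TRBV13-3/TRBJ1-4 beta.

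A second productive alpha chain was present for 31.7% ± 11.7 of TRAV12 rearrangements and 26.6% ± 3.45 of others (SD, n = 6). The share was 25.7% in CTX, 53.7% in CTX2, 23.5% in CSF1R, 29.2% in Combined, 22.7% in PBS2 and 35.7% in PBS1 for the family. CTX2 stood apart, and the family was higher than other TRA in 2 of 6 libraries (exact sign-flip permutation p = 0.5, adjusted 0.688). Without CTX2 the mean difference was 0.83 percentage points, against 5.20 with it. Median UMIs per rearrangement averaged 4.08 ± 1.02 for the family and 4.33 ± 1.37 for others (exact sign-flip permutation p = 0.625, adjusted 0.688).

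Among rearrangements with a called CDR3, those called nonproductive made up a larger share of the family than of other V genes in the 6 libraries. They were 10.3% of the family in CTX, 19.6% in CTX2, 15.0% in CSF1R, 12.8% in Combined, 17.0% in PBS2 and 17.6% in PBS1. For other TRA they were 8.35% in CTX, 7.02% in CTX2, 4.95% in CSF1R, 3.59% in Combined, 5.51% in PBS2 and 11.5% in PBS1. The family was higher in 6 of 6 libraries, by 8.56 ± 3.93 percentage points, with an exact sign-flip p of 0.03125, the lowest value that the permutations can give with 6 libraries; adjusted over 7 measures it was 0.219 and did not pass.

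TRAV12D-2 gave 85 of these 118 nonproductive rearrangements. The called sequence began with CA in 27 of the 118 (22.9%), against 212 of 392 nonproductive sequences of other V genes (54.1%). Counted over all TRA contigs with a V and a J gene, whether or not a CDR3 was called, the contigs not called productive were 17.6% ± 8.10 for the family and 22.4% ± 3.72 for others (SD, n = 6), higher for the family in 2 of 6 libraries. The direction of the difference therefore depends on whether a called CDR3 is required, and the part of the CDR3 call in it was not tested.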

How the data were processed

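The labels' protocols name a droplet 5′ kit and enrichment of mouse T cell receptors, and the authors used Cell Ranger 3.0.2 with mm10 (GRCm38), per the submitters' processing notes. The deposited table gives for each assembled contig a read count and a UMI count, both raw and whole, with gene names, CDR3, cell call and productive status, which were taken as deposited. Of 11 library names, 6 were tied to labels and 5 were not analysed here.

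Rearrangements were V gene and CDR3 nucleotide sequence, once per library. The members and lists were chosen with earlier results of these data known. The named copies were those of the annotation, the 8 most used TRAJ genes, TRBV genes averaging at least 5% of the family's partners over the libraries, and the 3 largest chains per library; the recurrent chains and the split by the third codon were chosen after their values were seen. Doublets were kept in the main counts.

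Family and other TRA were compared by two-sided exact sign-flip permutation over 6 libraries, and treated with untreated libraries by an exact permutation of means; p-values were adjusted by Benjamini-Hochberg. Intervals are exact Clopper-Pearson at 95%, and for 0 cells the limit is 3 counts. Both cover counting error only, as neither allows for PCR copies or for cells of the same clone. Ends were called common where at least 40% of at least 10 sequences of a gene shared them. Python 3.11.15, pandas 2.3.3, numpy 2.4.6 and scipy 1.17.1 were used, and the functions were tested on simulated data. Alternatives were high confidence contigs, at least 2 UMIs, no possible doublets, block letters removed, the most abundant TRA per cell, counting cells, expansion from 3 cells, medians, each library left out, and PBS2 placed in either group.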

Additional observations from a re-analysis of the deposited data

Results flagged for a closer look

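Productive TRAV12 contigs also occurred in barcodes that were not called cells, which the comparisons do not use. There were 129 in the 6 libraries, with 6 in CTX, 45 in CTX2, 16 in CSF1R, 38 in Combined, 21 in PBS2 and 3 in PBS1. They made up 12.8% of the 1011 productive TRA contigs outside called cells, and 72 of them had the V gene and CDR3 of a called cell of the same library. No library stood far enough from the others to be marked in the 16 sets of values checked for outliers, where chance would mark about 1 in 20.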

How the results depend on the processing

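Of the alternatives, 116 values were marked as unchanged, 9 reversed and 1 moved. Unchanged meant the same direction and side of the threshold. For the family's share it meant a move within 1 SD, for block differences the same direction, and for TRBV genes the same number passing. Many values could not have crossed the threshold. With 1 library left out the sign-flip p cannot go below 0.0625, and the treated against untreated p cannot go below 0.0667. The 116 is thus no measure of stability. Counting each cell once moved the mean TRAV12 share to 11.5% and reversed the second alpha difference to -3.28 percentage points. High confidence contigs reversed the TRAJ number difference between the D and unlettered blocks to -0.49. With 1 library left out that difference ranged between -1.15 (without CTX) and 1.31 (without Combined), being -0.24 without CTX2, -0.01 without PBS2 and -0.05 without PBS1, and the TRAJ number difference of the family ranged between -0.38 (without PBS1) and 1.40 (without CSF1R). Alternatives chosen after seeing the data reversed the nonproductive difference to -4.85 percentage points (all contigs with a V and a J gene) and the treated minus untreated difference to 1.07 (cells, without the recurrent chains). The causes were not tested. The TRBV13 difference was 1.94 percentage points with each cell counted once (exact permutation p 0.875) and 7.99 without possible doublets (exact permutation p 0.03125, adjusted 0.109), and over all its alternatives it lay between 1.94 and 9.79. The nonproductive difference was 5.36 with high confidence contigs and 4.30 with each cell counted once. Over their alternatives the CDR3 length difference lay between 0.065 and 0.188 residues and the UMI difference between -0.50 and -0.083. The treated minus untreated difference could not be computed without PBS1. Depth limits the family most in PBS1, with 14 rearrangements.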
